A study of Mus musculus with 12 samples.

Results

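Genes of the interleukin-1 (IL-1) family and the inflammasome, namely Il1a, Il1b, Il1rn, Il18, Nlrp3, Pycard, Casp1, Casp4 and Gsdmd, were followed by RNA sequencing in the mouse dendritic cell (DC) line Sp37A3. They were chosen by name, as 9 of the 55401 genes in the count table, and each was found once. Sp37A3 is an immature DC line that originated from mouse spleen, and all cells were grown in medium with GM-CSF and M-CSF. The control cells (CtrV) carried an empty lentiviral CRISPR vector and express Siglec-E, an inhibitory receptor for sialic acids. The EKO-labelled cells had been targeted with CRISPR/Cas9 in Siglece and were a pool of several selected clones, so differences between the lines include any that came with the selected clones. Cells of each line were pulsed with the model antigen ovalbumin (OVA) or left unpulsed, and all 4 groups received lipopolysaccharide (LPS) with a processing time of 24 h. Each group held 3 libraries, numbered as replicates 1, 2 and 3. Nothing in the labels says how far replicates were separate cultures, so the p-values measure the spread between these libraries.

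IL-1α, encoded by Il1a, and IL-1β, encoded by Il1b, bind the same receptor and drive inflammation, and the receptor antagonist encoded by Il1rn occupies that receptor without a signal. IL-1β and IL-18 are made as inactive precursors. Inflammasomes are complexes in which a sensor such as NLRP3 joins the adaptor ASC, encoded by Pycard, to caspase-1, which cleaves both precursors and the pore protein gasdermin D. The mouse Casp4 product, also called caspase-11, recognizes intracellular LPS and cleaves gasdermin D as well. In DCs and macrophages LPS is the classical priming signal for transcription of Il1b and Nlrp3. Only mRNA was measured here, not cleavage or secretion.

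Library totals lay between 27116201 and 39698572 counts, and a level of 3 counts, taken as the lowest that can be seen, corresponded to 0.0785 to 0.110 CPM (read counts scaled to library size with TMM factors, the unit of all levels given here). The targeted gene Siglece read 150.2 to 163.4 CPM in CtrV and 166.0 to 235.2 CPM in EKO-labelled libraries, so its transcript level does not check the label of the edited line. All 10 DC markers, among them Itgax, Cd74 and Zbtb46, passed the expression filter, with a summed level of 23311 to 25668 CPM in CtrV and 24209 to 26255 CPM in EKO-labelled libraries, most of it Cd74. Within that list Cd83 read 3.75 to 8.83 CPM in CtrV against 36.0 to 105.7 CPM in EKO-labelled libraries. Irf8 read 80.1 to 117.5 against 177.7 to 295.4 CPM, and H2-Ab1, H2-Aa and Ptprc were also higher in every EKO-labelled library. Itgax, Cd74, Flt3, Zbtb46 and Ccr7 overlapped between the lines. Cd74 read 16154 to 18270 CPM in CtrV against 13959 to 16484 CPM, and Itgax 857.5 to 1089 against 822.8 to 878.8 CPM. Of 6 macrophage or monocyte markers 5 passed, and their sum was 1315 to 1493 CPM in CtrV against 1737 to 1935 CPM in EKO-labelled libraries. Cd14, Csf1r and Fcgr1 in that list were higher in every EKO-labelled library, while Adgre1 and Mertk overlapped between the lines. Ly6c2 stayed at 1 count or fewer, and the part of the marker shifts in the results was not tested. No neutrophil, T cell, B cell or NK cell marker passed the filter. Of the fibroblast or stroma list only Pecam1 passed, at 166.0 to 202.3 CPM in CtrV and 282.9 to 345.5 CPM in EKO-labelled libraries. Of the epithelium list only Epcam passed, at 20.8 to 27.2 against 25.2 to 33.0 CPM. The T cell markers Cd3e, Cd3g and Trac and the neutrophil markers Ly6g, S100a8 and S100a9 were at 0 counts in all 12 libraries. Of the EKO-labelled libraries, replicate 1 stood apart in both treatments for several genes described here, and values without it are given where it changed a call.

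All 9 genes passed the expression filter (log2 CPM over 0 in 2 or more libraries), but Casp4 only through the EKO-labelled libraries, where it is high, so its line difference is given as a description, with no test. Of the other 8 genes, 6 differed between the lines in OVA-pulsed cells, 4 higher and 2 lower in EKO-labelled cells. The same 6 differed in unpulsed cells in the same directions. Il1a, Il1b, Il1rn and Casp1 were higher, Pycard and Gsdmd were lower, and Il18 and Nlrp3 did not pass the test. This has to be read against a wide difference between the lines, since 47.0% of all 14079 genes tested differed in OVA-pulsed cells, 25.1% higher and 21.9% lower, and 46.4% in unpulsed cells, 24.5% higher and 21.9% lower. The libraries of the lines did not overlap for the same 6 genes in each treatment, against 52.9% of all tested genes in OVA-pulsed and 47.1% in unpulsed cells. The median log2 fold change of the 8 genes was 0.49 with OVA and 0.60 without, and that of all tested genes was 0.0006 and 0.0001. In a cell line as in tissue, bulk levels cannot tell fewer expressing cells from less RNA per cell.

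**Figure D1:**
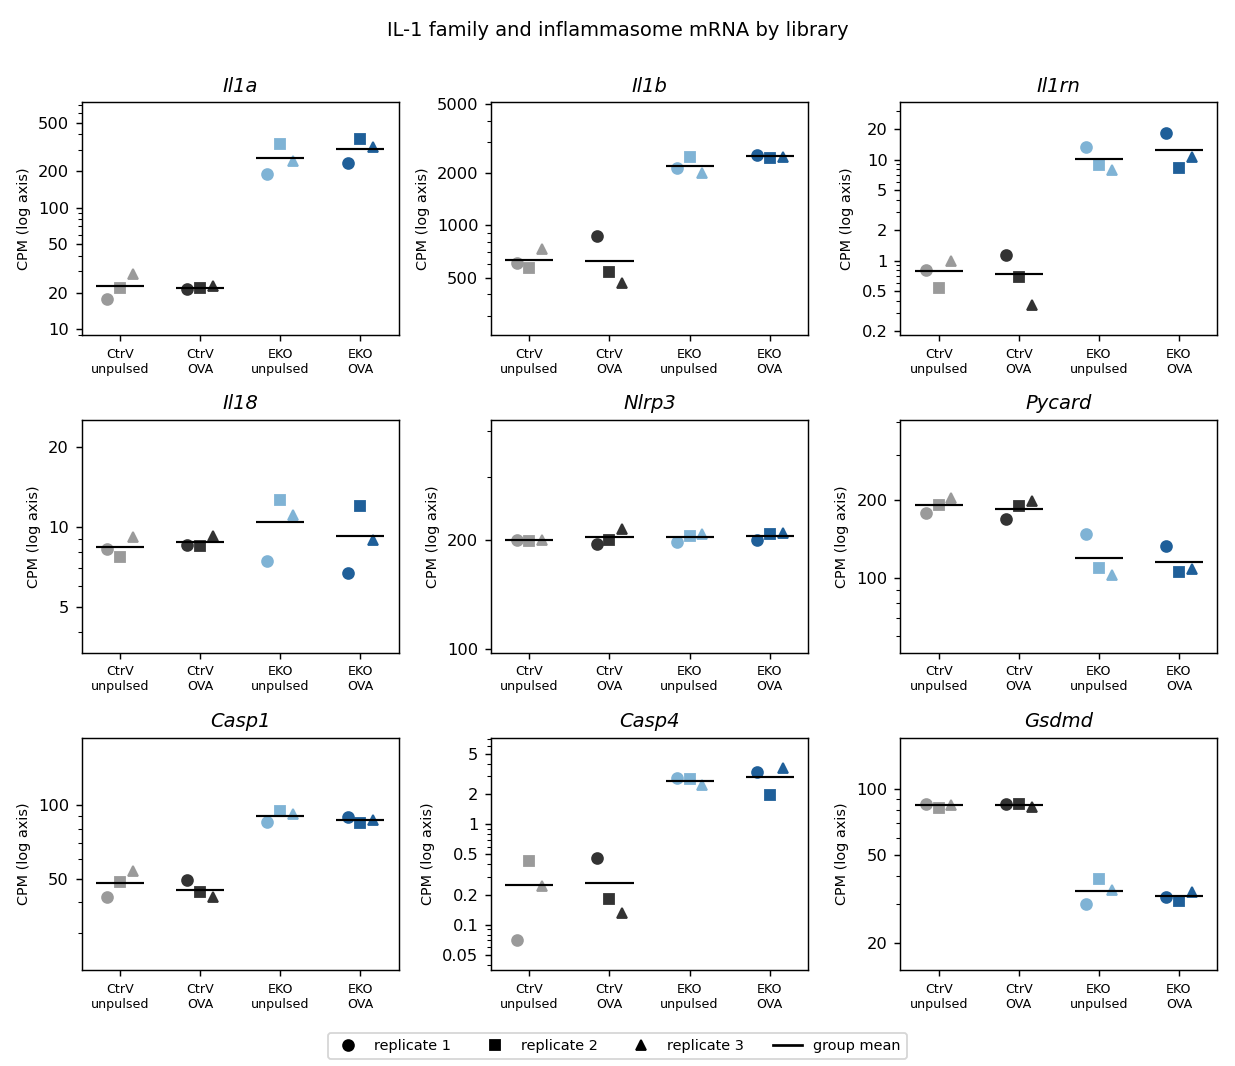
Level of each gene in each of the 12 libraries in CPM on a log axis whose range differs between panels, with 1 symbol per replicate number and a line at the group mean. The lines separate for all genes except Il18 and Nlrp3, as they do for 52.9% of all tested genes with OVA and 47.1% without. Il1b is at 465.5 to 869.9 CPM in CtrV and 1992 to 2546 CPM in EKO-labelled libraries. Casp4 is below 1 CPM in all CtrV libraries and passed the filter only through the EKO-labelled ones.

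The agonist genes Il1a and Il1b lie beside each other on the minus strand of chromosome 2 in GRCm38 (mm10). Il1a (ENSMUSG00000027399) spans chr2:129299610-129309972. In unpulsed CtrV cells Il1a read 17.8, 21.8 and 28.6 CPM in replicates 1, 2 and 3, and with OVA it read 21.2, 21.6 and 22.5 CPM. In unpulsed EKO-labelled cells it read 187.8, 332.3 and 243.8 CPM, and with OVA 234.2, 367.4 and 313.0 CPM. The lowest EKO-labelled library was thus far above the highest CtrV library, and within the EKO-labelled cells replicate 1 was lowest and replicate 2 highest in both treatments. The log2 fold change was 3.77 ± 0.15 (SE) in OVA-pulsed cells, 13.7-fold with a 95% confidence interval of 10.9 to 17.2 (adjusted p = 5.3e-08). In unpulsed cells it was 3.47 ± 0.15, 11.1-fold with an interval of 8.79 to 13.9 (adjusted p = 9.1e-08).

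Il1b (ENSMUSG00000027398), at chr2:129364570-129371139, had the highest level of the 9 per kilobase of exon in all 4 groups. In unpulsed CtrV cells it read 604.1, 566.1 and 725.7 CPM, and with OVA 869.9, 535.2 and 465.5 CPM. The EKO-labelled libraries read 2120, 2460 and 1992 CPM unpulsed and 2546, 2443 and 2469 CPM with OVA. The highest CtrV library, OVA-pulsed replicate 1, was below every EKO-labelled library, and the OVA-pulsed EKO-labelled libraries were nearly equal. EKO-labelled cells differed from CtrV by a log2 fold change of 2.02 ± 0.18 with OVA, 4.05-fold with an interval of 3.06 to 5.37 (adjusted p = 1.1e-05), and 1.79 ± 0.18 without, 3.46-fold with an interval of 2.61 to 4.58 (adjusted p = 2.8e-05). Both genes share exon bases with a gene on the opposite strand, 11.2% of those of Il1a with Gm14023 and 1.31% of those of Il1b with Il1bos. The library kit keeps strand information, but whether the counting used it is not stated. Gm14023 reached 5.98 CPM at most in CtrV and 6.36 CPM in EKO-labelled libraries, and Il1bos 1.41 and 2.74 CPM, against 17.8 CPM or more for Il1a and 465.5 CPM or more for Il1b in every library.

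The antagonist gene Il1rn (ENSMUSG00000026981, plus strand, chr2:24336853-24351494) was low in CtrV cells and far higher in EKO-labelled cells. In unpulsed CtrV cells it read 0.811, 0.537 and 0.996 CPM, and with OVA 1.13, 0.695 and 0.365 CPM. In the EKO-labelled line it read 13.3, 8.94 and 7.89 CPM unpulsed and 18.5, 8.33 and 10.5 CPM with OVA. Replicate 1 was the highest EKO-labelled library in both treatments, the opposite of its place for Il1a. The difference between the lines, as log2 fold change, was 4.05 ± 0.26 with OVA (adjusted p = 2.2e-07) and 3.67 ± 0.27 without (adjusted p = 6.5e-07). Summed over 3 libraries, 1307 counts stood against 76 with OVA, a depth-corrected ratio of 16.9 with an exact binomial interval of 13.4 to 21.6 that covers counting error only. The unpulsed sums were 891 and 67 counts, a ratio of 12.6 with an interval of 9.81 to 16.4.

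Il18 (ENSMUSG00000039217, plus strand, chr9:50554827-50581840), whose product induces interferon-γ in T and NK cells, did not follow the other cytokines. It read 8.25, 7.70 and 9.10 CPM in unpulsed CtrV cells and 8.51, 8.43 and 9.25 CPM with OVA. In EKO-labelled cells it read 7.41, 12.6 and 11.1 CPM unpulsed and 6.70, 12.0 and 8.92 CPM with OVA. EKO-labelled replicate 1 lay below every CtrV library in both treatments and replicate 2 above every one, so the groups overlapped. The log2 fold change was 0.04 with OVA, with a 95% confidence interval of -0.32 to 0.41 (adjusted p = 0.85), and 0.29 without, with an interval of -0.08 to 0.67 (adjusted p = 0.18). Without replicate 1 of the EKO-labelled cells in both treatments, the unpulsed difference was 0.49 and passed the test (adjusted p = 0.016), and the OVA difference was 0.24 and did not (adjusted p = 0.19). Without replicate 2 of the OVA-pulsed CtrV cells the OVA difference turned to -0.11, and without replicate 2 of the OVA-pulsed EKO-labelled cells to -0.16. The sign for Il18 in OVA-pulsed cells thus rested on single libraries.

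The sensor gene Nlrp3 (ENSMUSG00000032691, plus strand, chr11:59541568-59566956) was close to level across all 12 libraries. It read 200.3, 199.5 and 200.3 CPM in unpulsed CtrV cells and 195.0, 200.1 and 215.2 CPM with OVA. In EKO-labelled cells it read 197.8, 206.0 and 208.0 CPM unpulsed and 199.6, 207.9 and 209.9 CPM with OVA. The 95% confidence interval of the log2 fold change was -0.08 to 0.12 with OVA (adjusted p = 0.77) and -0.07 to 0.13 without (adjusted p = 0.65), which bounds any difference at 1.09-fold in either treatment. At 5394 to 7632 counts per library, depth did not limit this comparison.

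Pycard (ENSMUSG00000030793, minus strand, chr7:127989708-127993867), which encodes the adaptor ASC, was lower in EKO-labelled cells. It read 177.9, 191.1 and 204.1 CPM in unpulsed CtrV cells and 169.0, 190.0 and 198.1 CPM with OVA. The 3 EKO-labelled libraries read 148.1, 109.4 and 103.2 CPM unpulsed and 133.2, 105.5 and 108.3 CPM with OVA. Replicate 1 of the EKO-labelled cells was nearest to the CtrV range in both treatments but did not reach it. This was a log2 fold change of -0.69 ± 0.13 with OVA (adjusted p = 0.0014) and -0.68 ± 0.13 without (adjusted p = 0.0017), a level 1.62-fold and 1.60-fold lower. Without replicate 1 of the EKO-labelled cells in both treatments these were -0.85 and -0.90. Exon bases shared with Gm45205 on the opposite strand made up 12.8% of the gene, and Gm45205 had at most 0.309 CPM in any library.

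The protease gene Casp1 (ENSMUSG00000025888, plus strand, chr9:5298517-5307265) lies next to Casp4 (ENSMUSG00000033538, plus strand, chr9:5308828-5336783). Casp1 read 42.3, 48.3 and 53.9 CPM in unpulsed CtrV cells and 49.2, 44.1 and 42.3 CPM with OVA. In EKO-labelled cells it read 84.9, 94.1 and 91.5 CPM unpulsed and 89.2, 84.4 and 86.6 CPM with OVA. No libraries of the lines overlapped, and Casp1 was 1.92-fold higher with OVA, a log2 fold change of 0.94 ± 0.09 (adjusted p = 1.0e-05), and 1.87-fold higher without, a log2 fold change of 0.91 ± 0.09 (adjusted p = 1.5e-05).

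Casp4 was near the detection level in CtrV cells. It had 2, 12 and 7 counts in unpulsed and 17, 6 and 4 counts in OVA-pulsed CtrV libraries, which is 0.0705 to 0.459 CPM. In EKO-labelled cells it read 2.86, 2.81 and 2.45 CPM unpulsed, from 78, 85 and 80 counts, and 3.30, 1.93 and 3.63 CPM with OVA, from 126, 60 and 118 counts. No EKO-labelled library overlapped with a CtrV library, although the level stayed low in each. The depth-corrected ratio of summed counts was 11.1 with an interval of 7.47 to 17.1 with OVA, and 10.9 with an interval of 7.00 to 18.0 without. These exact binomial intervals cover counting error only and leave out the spread between libraries. For a gene that passed the filter through the EKO-labelled libraries, the separation and the ratios are descriptions, not tests. The fitted log2 fold change was 3.44 in both treatments, and its size, not its direction, moved with single CtrV libraries. With OVA it was 4.15 without OVA-pulsed CtrV replicate 1 and 3.12 without OVA-pulsed CtrV replicate 3. Unpulsed, it was 4.21 without unpulsed CtrV replicate 2 and 2.90 without unpulsed CtrV replicate 1.

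Gsdmd (ENSMUSG00000022575, plus strand, chr15:75862327-75867408), which encodes the pore protein gasdermin D, showed the largest fall. It read 85.9, 82.1 and 84.7 CPM in unpulsed CtrV cells and 85.2, 85.3 and 82.8 CPM with OVA. EKO-labelled cells had 29.9, 39.0 and 34.6 CPM unpulsed and 32.3, 30.9 and 34.0 CPM with OVA. The CtrV libraries were nearly equal, and the highest EKO-labelled library was below the lowest of them. The log2 fold change was -1.38 ± 0.08 with OVA, 2.60-fold lower (adjusted p = 3.3e-07), and -1.29 ± 0.08 without, 2.44-fold lower (adjusted p = 6.1e-07).

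**Figure D2:**
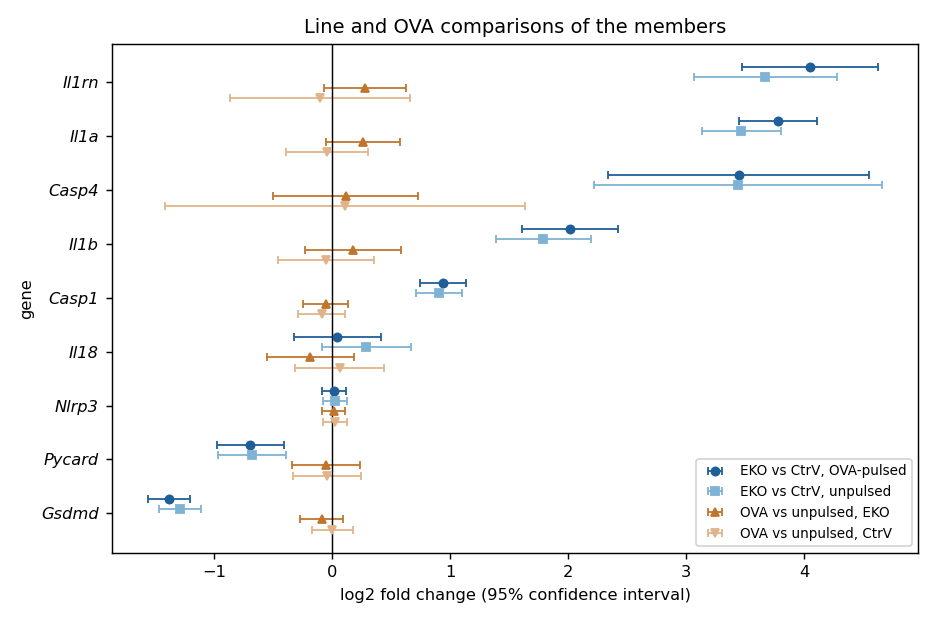
Log2 fold changes of the 9 genes with 95% confidence intervals, for EKO-labelled against CtrV cells with and without OVA (blue) and for the OVA pulse within each line (orange). The line differences run from -1.38 for Gsdmd to 4.05 for Il1rn, and all OVA differences have intervals that include 0. Casp4 passed the filter only through the EKO-labelled libraries, so its line differences and their intervals are descriptions, not tests.

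Promoter sequence was read for genes that moved together and for one that did not. The RefSeq promoter table (GRCm38.p6) held 8 of the 9 genes, all but Gsdmd, and the 250 bases before the start site were searched on both strands. The motifs were a TATA box (TATAAA), AP-1 (TGANTCA), C/EBP (TTGCNNAA), the ISRE core (GAAANNGAA), GAS (TTCNNNGAA) and the NF-κB consensus. Il1a and Il1b, the agonist genes that were higher in EKO-labelled cells, Casp4, which was higher from a very low level, and Nlrp3, which was level, are shown 5′ to 3′ on the strand of the gene, with matches in capitals. The windows are chr2:129309973-129310222 (minus) for Il1a, chr2:129371140-129371389 (minus) for Il1b, chr9:5308599-5308848 (plus) for Casp4 and chr11:59541319-59541568 (plus) for Nlrp3.
Il1a: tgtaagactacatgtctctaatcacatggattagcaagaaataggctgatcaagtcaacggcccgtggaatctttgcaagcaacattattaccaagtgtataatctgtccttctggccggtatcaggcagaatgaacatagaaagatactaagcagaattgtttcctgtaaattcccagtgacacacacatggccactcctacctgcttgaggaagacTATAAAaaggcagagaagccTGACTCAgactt
Il1b: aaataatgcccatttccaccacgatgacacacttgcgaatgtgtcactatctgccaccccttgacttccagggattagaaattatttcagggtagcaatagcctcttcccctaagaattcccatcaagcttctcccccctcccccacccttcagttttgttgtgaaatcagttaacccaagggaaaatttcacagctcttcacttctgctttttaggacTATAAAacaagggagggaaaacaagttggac
Casp4: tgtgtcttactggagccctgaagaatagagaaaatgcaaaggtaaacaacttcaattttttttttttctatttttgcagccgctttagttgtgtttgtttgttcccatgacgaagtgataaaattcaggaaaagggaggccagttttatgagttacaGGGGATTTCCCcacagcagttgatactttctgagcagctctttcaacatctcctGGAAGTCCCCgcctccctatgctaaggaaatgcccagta
Nlrp3: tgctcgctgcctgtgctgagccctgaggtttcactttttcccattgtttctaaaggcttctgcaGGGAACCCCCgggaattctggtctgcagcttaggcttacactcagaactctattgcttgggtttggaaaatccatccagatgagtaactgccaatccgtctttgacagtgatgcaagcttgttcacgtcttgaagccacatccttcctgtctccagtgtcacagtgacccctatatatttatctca
The TATA box began at position -32 in Il1a and -31 in Il1b, counted from the start site, and 12.4% of all 32851 promoter windows held those letters somewhere. Il1a also held an AP-1 match at -12, as did Il1rn at -141, against 6.75% of windows. The NF-κB consensus was found in Casp4, at -93 and -92 as overlapping matches and at -39, and in Nlrp3 at -186, against 7.25% of windows. The matches did not divide the genes by their direction, since Casp4 was higher in EKO-labelled cells and Nlrp3 did not pass the test. Il18 held TATA box letters on the opposite strand at -175, and Pycard held a C/EBP match at -142, against 9.56% of windows. No window used for the 8 genes held the ISRE core or GAS letters, which were in 7.13% and 7.02% of all windows. These matches are descriptions of letters, not of bound sites.

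Levels of different genes were compared per kilobase of exon, so their order depends on the annotated exon lengths. In unpulsed CtrV cells Il1b led with 331 ± 44 CPM per kilobase (SD, n = 3), followed by Pycard with 50.3 ± 3.4 and Nlrp3 with 49.3 ± 0.11. At the annotated lengths, 3800 bases for Pycard, Pycard and Nlrp3 did not differ beyond their spread. Gsdmd at 35.4 ± 0.82 and Casp1 at 32.2 ± 3.9 CPM per kilobase likewise overlapped. Il1a at 11.5 ± 2.8 was above Il18 at 8.10 ± 0.69 CPM per kilobase in every library, the ranges being 9.02 to 14.5 and 7.47 to 8.83. Il1rn at 0.141 ± 0.042 and Casp4 at 0.0666 ± 0.048 came last, with overlapping libraries. In OVA-pulsed CtrV cells Nlrp3 and Pycard changed places within their spread, the rest of the order was the same, and Gsdmd no longer overlapped with Casp1.

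In EKO-labelled cells the order changed. Unpulsed, Il1b read 1149 ± 127 CPM per kilobase, and Il1a was second at 129 ± 37, above Casp1 at 60.2 ± 3.2 and Nlrp3 at 50.3 ± 1.3. Pycard followed at 31.6 ± 6.4, Gsdmd at 14.5 ± 1.9 and Il18 at 10.1 ± 2.6 CPM per kilobase. Il1rn at 1.81 ± 0.52 and Casp4 at 0.729 ± 0.060 remained last. With OVA the order was the same. No neighbours in that order had overlapping libraries in either treatment, and the libraries of Gsdmd and Il18 lay close to each other in unpulsed cells, at 12.6 to 16.4 against 7.18 to 12.2 CPM per kilobase. The order by mean stayed as given in all 4 groups when the longest annotated transcript replaced the union of exons, although single levels moved, that of Il1rn in EKO-labelled cells from 2.03 to 4.40 and that of Casp4 from 0.762 to 1.49 CPM per kilobase. For Pycard, with 2 annotated transcripts, both lengths were 3800 bases, so this change could not test its place. The level of Pycard at a shorter length was not computed.

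**Figure D3:**
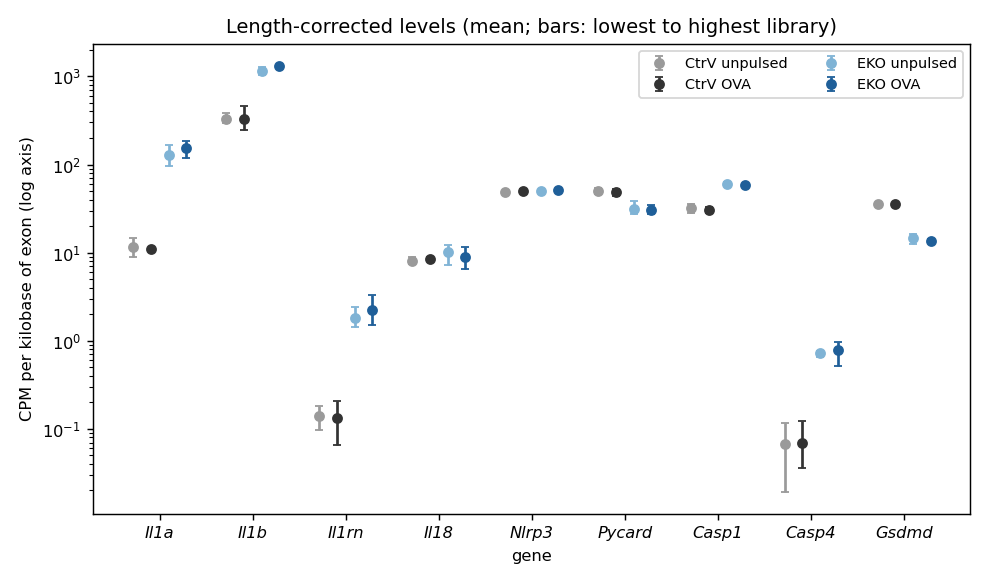
Mean level of each gene per kilobase of exon in each group on a log axis, with bars from the lowest to the highest library of 3. Il1a moves from 11.5 to 129 CPM per kilobase between unpulsed CtrV and EKO-labelled cells and Gsdmd from 35.4 to 14.5, while Nlrp3 stays near 50.3.

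Ratios within a library describe the balance of the genes without the depth of the library. The ratio of Il1b to Il1a per kilobase had a median of 26.5 over the 6 CtrV libraries, from 21.4 to 42.5, and of 8.31 over the 6 EKO-labelled libraries, from 6.88 to 11.7. The share of Il1a in the agonist mRNA was therefore higher in every EKO-labelled library. The ratio of agonist to antagonist mRNA differed by agonist. Il1b to Il1rn was 2114 to 3704 in CtrV and 400.2 to 850.9 in EKO-labelled libraries, without overlap, while Il1a to Il1rn had medians of 84.0 and 85.0 with overlapping ranges of 52.4 to 173.1 and 35.6 to 123.6. The ratio of Casp1 to Gsdmd, protease to pore protein, was 0.781 to 1.01 in CtrV and 3.83 to 4.52 in EKO-labelled libraries. Casp1 to Casp4 was 265.3 to 1486 in CtrV and 59.2 to 108.3 in EKO-labelled libraries, the former resting on few Casp4 counts. Il1b to Il18 was 27.2 to 55.2 in CtrV and 97.0 to 205.6 in EKO-labelled libraries. These ratios are built from the levels tested above and were given no test of their own.

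Replicates of a group did not deviate alike for all genes. In the EKO-labelled cells, replicate 1 deviated from its group mean in log2 CPM by -0.40 unpulsed and -0.36 with OVA for Il1a, by -0.45 and -0.41 for Il18, by 0.44 and 0.65 for Il1rn and by 0.32 and 0.21 for Pycard. The pattern was thus shared by both treatments. For Il1b the same library deviated by -0.04 and 0.03 only, and for Casp1 by -0.08 and 0.04. In CtrV cells the widest deviations were those of Casp4, from -1.02 to 0.86 at a handful of counts per library.

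**Figure D4:**
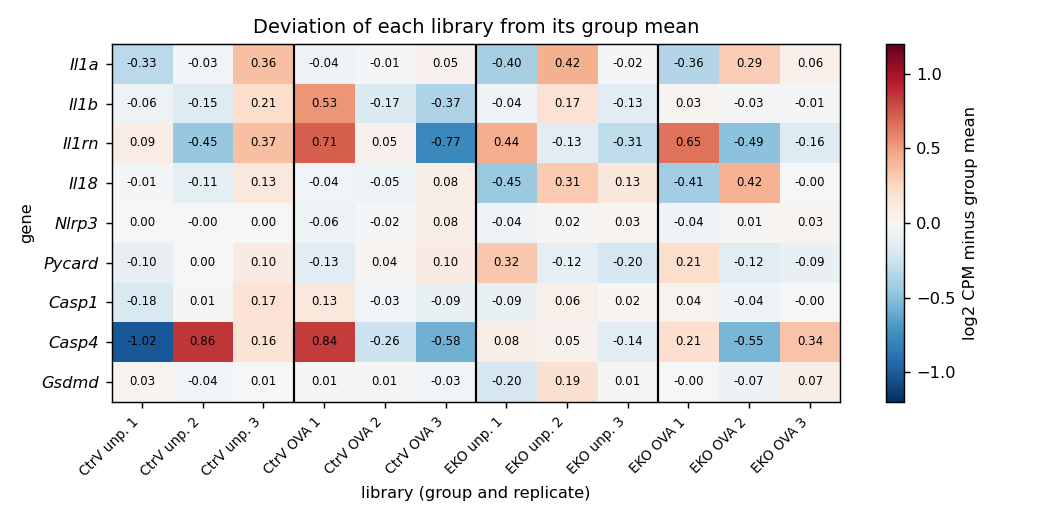
Deviation of log2 CPM from the group mean for each gene in each library, with red above and blue below the mean and the value printed in each cell. Replicate 1 of the EKO-labelled cells is low for Il18 (-0.45 unpulsed, -0.41 with OVA) and high for Il1rn (0.44 and 0.65) in both treatments, while Nlrp3 is near 0 in every library.

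The OVA pulse was compared with no pulse in each line, using the same libraries as above. In CtrV cells the log2 fold changes of the 9 genes lay between -0.10 for Il1rn and 0.11 for Casp4, and none passed the test. In EKO-labelled cells they lay between -0.18 for Il18 and 0.28 for Il1rn, and again none passed. The smallest unadjusted p among the 9 was 0.34 for Casp1 in CtrV and 0.088 for Il1a in EKO-labelled cells, and for every gene the pulsed and unpulsed libraries overlapped. In edgeR 0 of 14079 genes passed in either line (0%), with 231 genes in CtrV and 394 in EKO-labelled cells at an unadjusted p under 0.05, and DESeq2 called 0 as well. Same-numbered pulsed and unpulsed EKO-labelled libraries deviated together from their group means, with correlations of 0.706, 0.351 and 0.411. Pair by pair, Il1a and Nlrp3 were higher and Il18 lower with OVA in every EKO-labelled replicate, and the other genes were mixed. With the EKO-labelled libraries fitted alone with the replicate block, 0 of the 9 genes and 0 of all tested genes passed. The intervals bound what could have been missed in the main fit, whose replicate terms are shared by the lines. For Il1b in EKO-labelled cells the OVA difference was 0.18 with an interval of -0.23 to 0.59, and for Il1a it was 0.27 with an interval of -0.05 to 0.58. For Casp4 in CtrV cells the interval was -1.41 to 1.63, so a large change could not be seen at that depth.

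Whether the line difference depended on the pulse was tested as an interaction. The difference of the log2 fold changes ranged from -0.25 for Il18 to 0.38 for Il1rn, no gene of the 9 passed, and the smallest unadjusted p was 0.17 for Il1a. Over all tested genes edgeR and DESeq2 called 0 (0%), and edgeR gave 269, or 1.91%, at an unadjusted p under 0.05, again fewer than uniform p-values would give. For Gsdmd the interval of the interaction was -0.34 to 0.16 and for Casp1 -0.24 to 0.31.

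Around the 9 genes, 45 further genes of the pathway were listed by role, of which 35 passed the filter. In OVA-pulsed cells 15 of the 35 were higher, 8 lower and 12 did not pass the test, and in unpulsed cells 16 were higher, 7 lower and 12 did not pass. Set against the 47.0% and 46.4% of all genes, 23 of 35 passed in each treatment, with a median log2 fold change of 0.07 and 0.02. The count in OVA-pulsed cells was 15 when replicate 2 of the OVA-pulsed CtrV cells or replicate 3 of the OVA-pulsed EKO-labelled cells was left out.

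None of the 5 other IL-1 family ligands passed the filter. Il33, Il36b and Il1f10 had 0 counts in all 12 libraries, and Il36g had at most 26 counts in any library. Among inhibitors and decoys, Il18bp, which encodes the soluble IL-18 binding protein, was higher in EKO-labelled cells, at 4.43 ± 0.34 against 2.61 ± 0.72 CPM with OVA (SD, n = 3), a log2 fold change of 0.75 (adjusted p = 0.018), and 1.04 without OVA (adjusted p = 0.0038). Il1r2, the decoy receptor for IL-1, was lower in unpulsed EKO-labelled cells with a log2 fold change of -0.63 (adjusted p = 0.0056), and its OVA value was -0.29 (adjusted p = 0.13). Il36rn had at most 1 count, and Sigirr did not pass the test in either treatment.

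All 6 receptor genes were tested, of which 1 was higher and 4 lower with OVA and 1 higher and 2 lower without. Of all tested genes 25.1% were higher and 21.9% lower with OVA, and 24.5% and 21.9% without. Il18r1, the IL-18 receptor chain, had the largest difference of the pathway lists after Irak3, at 36.7 ± 2.0 CPM in OVA-pulsed EKO-labelled cells against 133.4 ± 5.9 CPM in CtrV, 3.63-fold lower with a log2 fold change of -1.86 (adjusted p = 4.1e-09) and of -1.70 without OVA (adjusted p = 8.1e-09). Its partner Il18rap had -0.26 with OVA (adjusted p = 0.0038) and -0.11 without (adjusted p = 0.15). Il1rl1, the IL-33 receptor, was lower, with log2 fold changes of -0.84 with and -0.64 without OVA (adjusted p = 0.0024 and 0.012), and Il1rap, the shared accessory chain, was higher by 0.32 and 0.35 (adjusted p = 0.0018 and 0.0012). Il1r1, the signalling receptor of IL-1, did not pass, with log2 fold changes of -0.08 and -0.02.

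Of 7 genes of receptor signalling, 4 were higher and 2 lower with OVA, and 3 higher and 2 lower without. The shares of all tested genes were again 25.1% and 21.9% with OVA, and 24.5% and 21.9% without. Irak3, an inhibitor of IRAK signalling, read 12.1 ± 1.8 against 2.66 ± 0.50 CPM with OVA, with a log2 fold change of 2.18 (adjusted p = 1.9e-06) and 2.10 without (adjusted p = 3.5e-06). The kinase genes moved apart, Irak2 with log2 fold changes of 0.57 with and 0.60 without OVA and Irak4 with -0.48 and -0.36, each past the test in both treatments. Traf6 had 0.32 with OVA (adjusted p = 0.026) and 0.12 without (adjusted p = 0.36).

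Of 8 tested sensor genes other than Nlrp3, 5 were higher with OVA and 6 without, and none was lower. Of all tested genes 25.1% and 24.5% were higher. Those higher with OVA were Aim2 and the NAIP genes Naip1, Naip2, Naip5 and Naip6. The NAIP genes, receptors for bacterial flagellin and secretion needles, had log2 fold changes of 0.51 and 0.60 for Naip1, 0.43 and 0.70 for Naip5 and 0.36 and 0.42 for Naip6. They are near-identical copies, and reads that fitted several places were assigned to a single one. The values of single NAIP genes, and the counts of sensor genes that include them, are therefore uncertain. Aim2, a sensor of cytosolic DNA, had 0.34 with OVA (adjusted p = 0.012) and 0.55 without (adjusted p = 0.00081). Nlrc4, which works with the NAIP proteins, had -0.48 (adjusted p = 0.098) and -0.30 (adjusted p = 0.31). Nlrp12 had 0 counts in all libraries, and Nlrp6 and Mefv were too low to be tested.

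Among 8 inflammasome regulators, P2rx7, the ATP-gated channel whose opening is a classical trigger of NLRP3, was higher, at 17.8 ± 1.7 against 5.72 ± 1.1 CPM with OVA, with a log2 fold change of 1.65 (adjusted p = 1.6e-07) and 1.53 without (adjusted p = 3.5e-07). Panx1, a channel that releases ATP, was lower, with log2 fold changes of -0.57 and -0.78 (adjusted p = 2.4e-05 and 2.9e-06). Nlrx1, a mitochondrial member of the NLR family, was higher by 0.85 and 0.84, and Pstpip1, a partner of pyrin, by 0.77 and 0.81. Nek7, which binds NLRP3, had -0.13 and -0.09 and did not pass in either treatment, nor did Brcc3 or Card9. Of the remaining caspase and membrane genes, Casp8 was higher by 0.23 and 0.22 and Gsdme lower, at -0.17 and -0.18 (adjusted p = 0.045 and 0.036), while Ninj1, needed for membrane rupture, did not pass. None of the listed genes passed the interaction test, each with an adjusted p of 1.

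**Figure D5:**
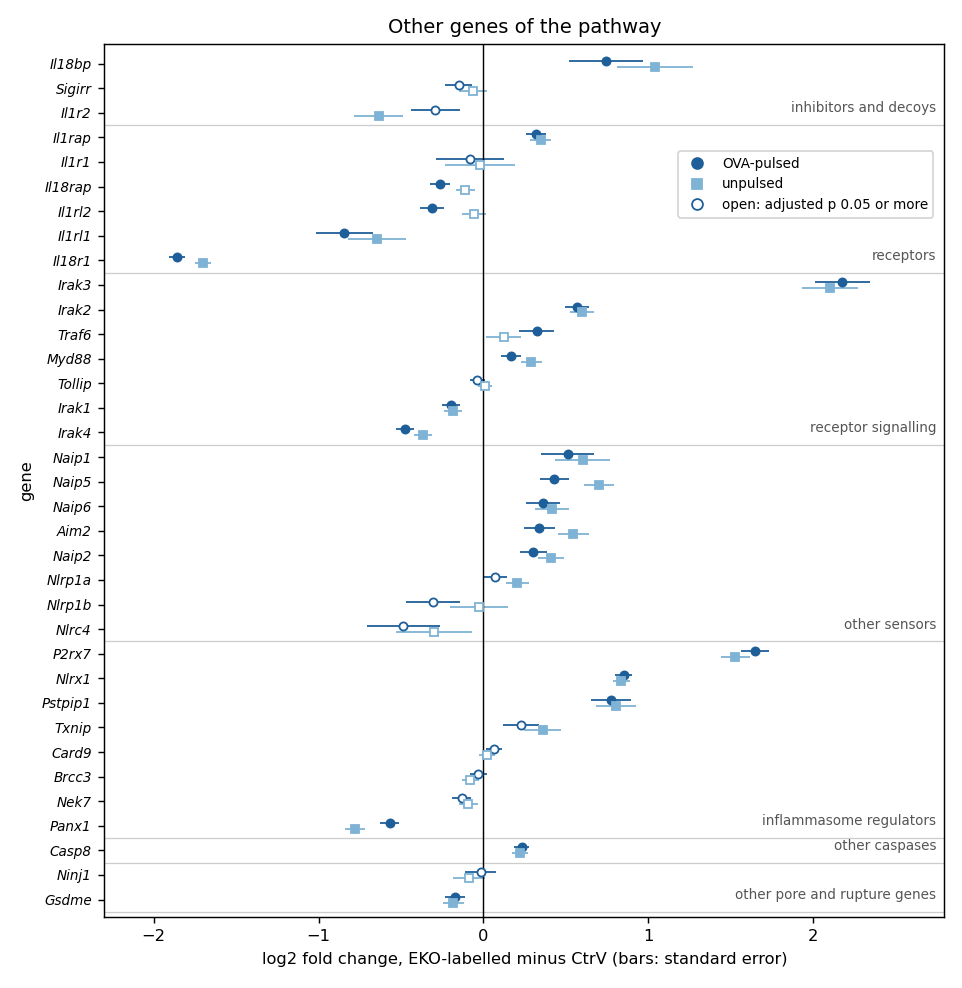
Log2 fold changes, EKO-labelled minus CtrV, of the 35 tested pathway genes grouped by role, with OVA (circles) and without (squares), bars showing the standard error and open symbols an adjusted p of 0.05 or more. Irak3 (2.18) and P2rx7 (1.65) lie farthest to the right and Il18r1 (-1.86) farthest to the left in OVA-pulsed cells.

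The genes whose levels were most like those of Il1b and of Il18 were found by Pearson correlation of log2 CPM over the 12 libraries among all tested genes outside the 9. For Il1b they were Vwa5a (r = 0.996), Traf1 (0.994), Gm29284 (0.994), A530032D15Rik (0.993) and Atp6v1b2 (0.992). With group means removed these correlations were 0.960, 0.937, 0.932, 0.902 and 0.833. The genes were picked on these same libraries, so this is no separate support for the likeness. For Il18 they were A4galt (0.938), Slc25a38 (0.927), Eef1akmt4 (0.920), Was (0.912) and Serpinb1b (0.909). The points share the libraries and the line difference, and the correlations are descriptions without a test.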

How the data were processed

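RNA of 12 Sp37A3 libraries, 3 in each of 4 groups, was sequenced from stranded mRNA libraries. The deposited table holds raw read counts for each gene, as the authors made them. Per the paper's methods and the labels reads were mapped by STAR to the mm10 genome, keeping 1 location for reads with several equal hits, and the 5′ ends of reads were assigned to merged exon models with featureCounts. Use of the strand is not stated. Groups and replicate numbers came from the labels. No sample column was left unused.

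Here, gene symbols, positions and exon lengths were taken from GENCODE M21 (GRCm38), which is not the annotation used for counting. The expression filter (log2 CPM over 0 in 2 or more libraries) kept 14079 of 55401 genes. Tests used the quasi-likelihood F test of edgeR 4.0.16 in R 4.3.3 with TMM factors. The 12 libraries were fitted in 1 model of group plus replicate number. P-values were adjusted by Benjamini-Hochberg over the 14079 genes, and 0.05 was the threshold with no fold limit, since the methods leave both blank. The common dispersion was 0.00590. Standard errors are Wald errors of that fit, and intervals are at 95%. Correlations used log2 CPM with a prior count of 2. Alternatives were DESeq2 1.42.0, RLE factors, other filters, no replicate block, the compared libraries alone and leaving out libraries. The main edgeR fit and the DESeq2 fit were run on counts simulated with a single dispersion and no replicate effect, and the other alternatives were not. Intervals and floors from counts cover counting error only.

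The replicate block follows the study's methods. Same-numbered OVA-pulsed libraries of the lines deviated together from their group means, with correlations of 0.449, 0.292 and 0.289. Replicates exceeded the noise of sampling (chi-square over degrees of freedom 4.29 to 38.3), so none was counted as a duplicate.

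The 9 genes, the pathway and marker lists, the tests and the alternatives were chosen with earlier results of these data known. Pathway genes were named from those that passed the test or bore on a member, mostly the largest differences of each list. Myd88, Irak1, Il1rl2, Txnip and Nlrp1a also passed in OVA-pulsed or unpulsed cells and were not described above. The 5 genes most like Il1b and Il18 were picked by correlation.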

Additional observations from a re-analysis of the deposited data

How the results depend on the processing

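The 6 genes past the threshold in each line comparison, Casp4 not counted, passed in every fit with 1 library left out. They passed with RLE factors, with DESeq2, without the expression filter, in the compared libraries alone and with at least 10 counts in every library. That last filter left out Casp4. In the main fit 47.0% of all tested genes passed with OVA and 46.4% without. Without replicate 1 of the EKO-labelled cells the same 6 passed in both treatments. Il18 was added without OVA, at a log2 fold change of 0.49. Same-numbered unpulsed libraries of the lines correlated at 0.060, -0.012 and 0.263, so there the pairing is uncertain, and 3 of those 6 libraries correlated best with their own number. Without the replicate block the same 6 genes were called in each treatment, and no call of the 8 tested genes changed. Of all genes 5413 and 5337 were then called, against 6619 and 6537. Single libraries left out moved the pathway genes called with OVA from 15 to 24, Il18 with OVA from -0.16 to 0.18, through -0.11, and Nlrp3 with OVA from -0.0112 to 0.0490, through -0.0032, and Casp4 from 3.12 to 4.15 with OVA and from 2.90 to 4.21 without. Unpulsed, Il1rn had the largest log2 fold change of the 9 except without CtrV replicate 1, where Il1a had 3.44 against 3.38, and without CtrV replicate 2, where Casp4 had 4.21 against 3.60. The cause was not tested. Of the fold changes recomputed, those of Casp4 included, 335 kept their direction and side of the threshold, 4 turned and 1 newly passed. With the longest transcript as length, EKO-labelled levels were 1725 for Il1b, 4.40 for Il1rn, 1.49 for Casp4 and 18.7 CPM per kilobase for Gsdmd. Depth limits Casp4 in CtrV cells, at 2 to 17 counts per library.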
